A study of Homo sapiens with 12 samples.

Results

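The Kruppel-like factors described here are 9 zinc-finger transcription factors, KLF2, KLF3, KLF4, KLF5, KLF6, KLF7, KLF10, KLF11 and KLF13. They were taken by gene symbol from the annotation of the array's probe sets, and a gene with more than 1 probe set was read from the brighter one. All 9 were measured, among 18417 genes in all.

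The data are 12 Affymetrix arrays of RNA from MCF10A, an established line of human breast epithelial cells that does not form tumours, with 3 arrays in each of 4 groups. The groups were cells given heregulin, which binds HER3 and HER4, cells given TGF-alpha, which binds EGFR, cells given AP1510, a bivalent molecule that pairs FKBP-tagged proteins, and untreated cells. Every group, the untreated one included, carried a stably transfected full-length human HER2 chimera with FKBP and HA tags, so that AP1510 forms HER2 homodimers. All groups also had cholera toxin, hydrocortisone and insulin in the medium, and serum and EGF had been taken away 24 hours before ligand was added. RNA from treated cells was collected 48 hours after ligand. Dishes were plated in triplicate, and p-values therefore measure only the spread among dishes and arrays. Ligand doses, the promoter of the chimera, whether the line is 1 clone, and when untreated cells were harvested were not given in the sources used here. Untreated cells may therefore differ from treated cells in time in culture, and this cannot be told apart from what the 3 treatments share against them.

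Kruppel-like factors bind GC-rich and CACCC-type DNA through zinc fingers at the carboxyl end, and differ mainly in the amino-terminal part that recruits coactivators or corepressors. KLF2, KLF4, KLF5, KLF6 and KLF7 mostly activate genes, KLF3 represses through the CtBP corepressors, and KLF10, KLF11 and KLF13 repress through the SIN3A and histone deacetylase complex. In stratified and glandular epithelium KLF4 is known for cell cycle exit and barrier formation and KLF5 for the proliferating basal layer. KLF10 and KLF11 were first described as early genes induced by TGF-beta, and several members are also early genes after growth factors, a response that a single harvest at 48 hours does not show.

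Levels are log2 intensities, so a difference of 1 is a doubling, and the levels of different genes cannot be compared because each probe set responds differently. Over all 12 arrays the level of the median gene was 5.97. The array medians, taken over all 33297 probe sets and not only those of genes tested, ran from 5.33 to 5.44. All 7 measured epithelial markers, of 10 listed, lay above that median gene, with summed levels of 70.0 to 70.8 in heregulin arrays, 74.0 to 74.5 in TGF-alpha arrays, 70.5 to 71.4 in AP1510 arrays and 70.0 to 70.2 in untreated arrays. These sums hold opposite shifts. EPCAM averaged 8.14 with heregulin, 10.1 with TGF-alpha, 9.36 with AP1510 and 9.23 in untreated cells, a fall with heregulin (limma adjusted p = 0.00250) and a rise with TGF-alpha (limma adjusted p = 0.00266). KRT5 and KRT14 rose by 0.82 and 0.63 with heregulin, by 1.09 and 0.55 with TGF-alpha and by 0.52 and 0.48 with AP1510. TGF-alpha also raised KRT18 and ITGB4. None of the 6 measured leukocyte markers lay above it, with PTPRC at 2.98, and their summed levels spanned 25.7 to 26.7. Of 6 endothelial markers only PECAM1, at 8.52, lay above it over all arrays. KDR averaged 6.26 with heregulin and 6.27 with TGF-alpha, above it there, 5.51 with AP1510 and 5.30 in untreated cells, and CDH5 averaged 5.09, 4.72, 5.22 and 5.67 in the same order. Of 6 fibroblast markers only DCN and COL1A1 lay above it. The summed fibroblast markers were 34.0 to 35.3 in heregulin arrays, 31.3 to 32.0 in TGF-alpha arrays, 32.3 to 32.9 in AP1510 arrays and 32.4 to 33.0 in untreated arrays. That shift came mainly with DCN, the gene of decorin, whose level differed from untreated by 1.59 with heregulin and by -0.80 with TGF-alpha. The part of these marker shifts in the results on Kruppel-like factors was not tested. On the first principal component of all genes AP1510 replicate 1 lay at -2.43, against -12.0 and -14.0 for the other 2 AP1510 arrays. Results for the Kruppel-like factors that change without it are given below. On the second component heregulin replicate 2 lay at -30.1, against -20.0 and -17.8 for the other 2 heregulin arrays. Calls of single genes outside the 9 members were not checked without single arrays.

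A gene is said to be called, or to have risen or fallen, where limma's moderated test gave a p-value under 0.05 after Benjamini-Hochberg adjustment over all 18417 genes. The adjustment is made within each pair of groups, so the same unadjusted p passes more readily where more genes differ. Of the 9 Kruppel-like factors, 6 differed among the 4 groups by the moderated F test, against 28.5% of all genes. KLF5, with an adjusted p of 0.000148, and KLF4, with 0.000371, were lowest in p, followed by KLF13 with 0.00101. KLF10, KLF6 and KLF3 also passed, at 0.0171, 0.0204 and 0.0429. KLF11 had an adjusted p of 0.0561, KLF7 of 0.0782 and KLF2 of 0.851. Over the 6 pairs of groups, 15 of the differences of single members were called, 7 members were called at least once, and KLF2 and KLF7 were never called. In single pairs 1.47% to 26% of all genes were called, and the share called at least once was not computed. In these bulk arrays fewer cells making a transcript and less transcript in each cell cannot be told apart.

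**Figure D1:**
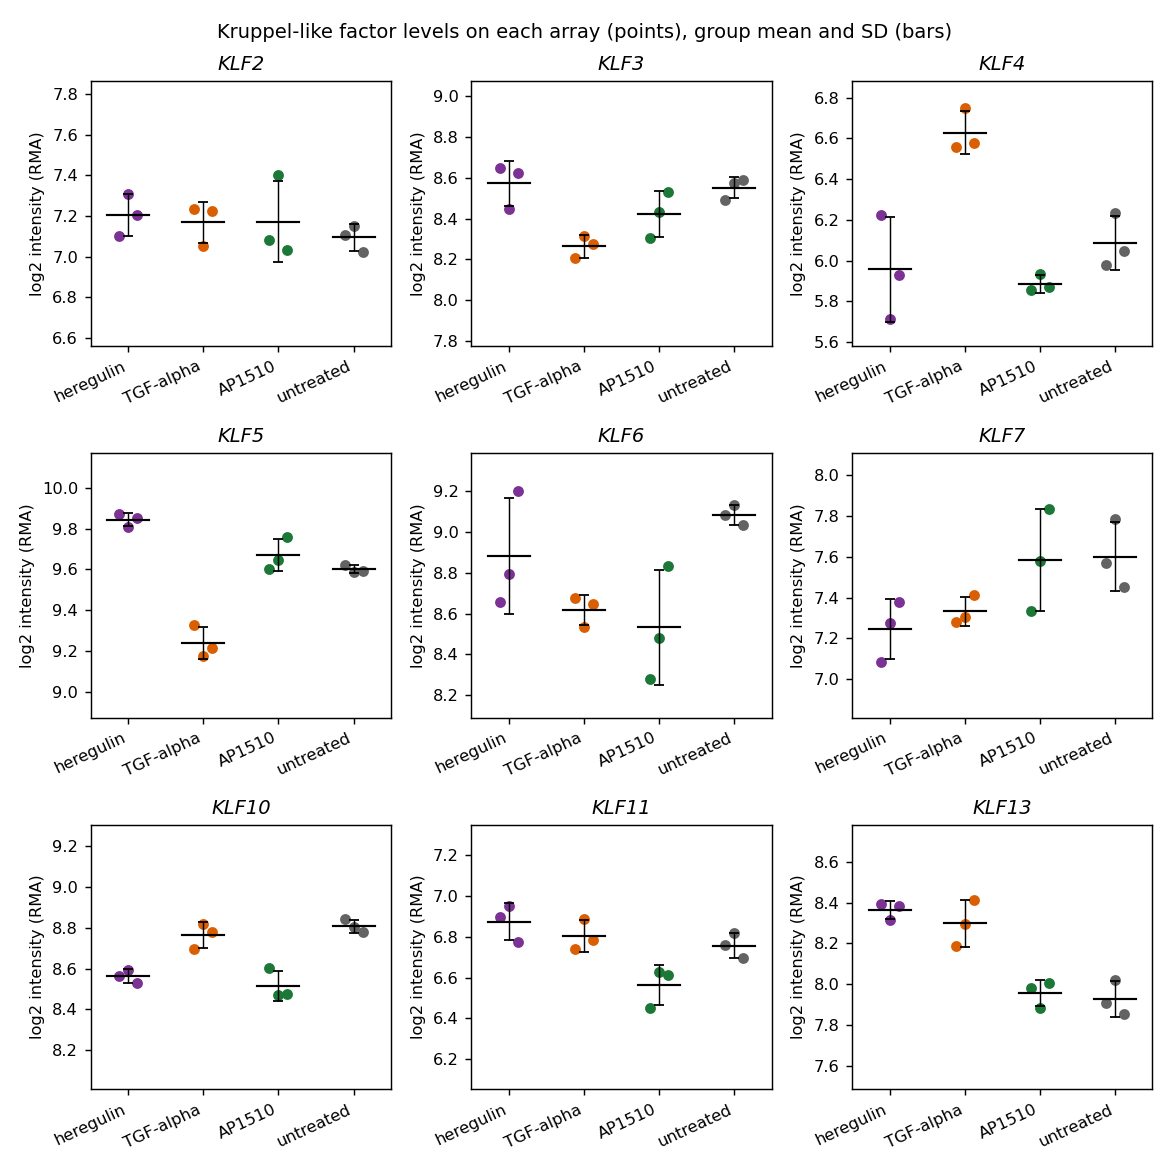
Level of each of the 9 Kruppel-like factors (vertical axis, log2 RMA intensity, all panels spanning the same range) on each array, by group from left to right as heregulin, TGF-alpha, AP1510 and untreated; points are arrays and bars are the group mean and SD of 3 arrays. KLF4 stands highest and KLF5 lowest in TGF-alpha arrays, and KLF13 stands higher in heregulin and TGF-alpha arrays than in AP1510 and untreated arrays.

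The members with the most calls were KLF4, KLF5 and KLF13, and the 250 bases before their annotated RNA starts are printed here to show the DNA from which these transcripts begin. The sequences are from RefSeq, build GRCh38.p14, read 5′ to 3′ on the gene's own strand. KLF4 lies on the minus strand at chr9:107489770-107490019, and KLF5 on the plus strand at chr13:73054726-73054975 (window 1) and chr13:73058755-73059004 (window 2). KLF13 lies on the plus strand at chr15:31326585-31326834. Capitals mark matches, on either strand, to the GC box GGGCGG and the CACCC box CCACCC, both of the kind that Kruppel-like factors and SP factors bind, and to the E-box CACGTG.
KLF4: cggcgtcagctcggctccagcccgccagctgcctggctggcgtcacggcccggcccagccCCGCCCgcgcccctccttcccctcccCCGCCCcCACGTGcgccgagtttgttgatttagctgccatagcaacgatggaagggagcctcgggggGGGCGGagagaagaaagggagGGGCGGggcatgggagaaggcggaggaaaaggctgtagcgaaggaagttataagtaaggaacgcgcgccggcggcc
KLF5 window 1: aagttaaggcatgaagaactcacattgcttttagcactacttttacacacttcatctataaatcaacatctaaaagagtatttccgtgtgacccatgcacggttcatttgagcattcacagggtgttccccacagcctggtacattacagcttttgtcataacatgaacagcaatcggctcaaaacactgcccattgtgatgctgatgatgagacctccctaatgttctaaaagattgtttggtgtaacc
KLF5 window 2: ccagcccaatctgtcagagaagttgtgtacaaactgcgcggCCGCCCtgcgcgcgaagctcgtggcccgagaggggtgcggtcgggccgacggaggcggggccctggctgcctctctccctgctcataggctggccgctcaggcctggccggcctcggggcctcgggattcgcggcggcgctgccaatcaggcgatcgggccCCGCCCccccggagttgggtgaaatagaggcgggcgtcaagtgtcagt
KLF13: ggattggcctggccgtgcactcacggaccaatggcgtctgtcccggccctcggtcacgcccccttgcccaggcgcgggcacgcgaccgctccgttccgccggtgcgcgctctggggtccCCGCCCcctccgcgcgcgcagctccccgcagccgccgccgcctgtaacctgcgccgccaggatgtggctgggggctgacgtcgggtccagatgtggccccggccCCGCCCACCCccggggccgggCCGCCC

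The KLF4 window was 69.2% G and C and held 4 GC boxes, whose first bases lay 76 to 190 bases before the start, and an E-box at 157 bases. KLF5 window 2 was 70.8% G and C with 2 GC boxes, whereas window 1, which belongs to a more upstream start, was 40.8% G and C and held none of the motifs searched. The KLF13 window was 78.8% G and C and held 3 GC boxes and a CACCC box that overlaps a GC box. The tables used here hold 12 such windows for 7 of the members. GC boxes were found in 8 of the 12 windows, against 42.6% of 35116 windows of 27305 genes. At least 1 window of 7 of the 7 members held one, and the share of all genes for this was not computed. CACCC boxes were in 2 of 12 windows against 31.3%, and E-boxes in 4 of 12, those of KLF4, KLF6, KLF7 and KLF11, against 6.34%. The cyclic AMP response element TGACGTCA was in 1 window, of KLF11, against 1.65%, and the SRF CArG box in 1, of KLF7, against 1.16%. The AP-1 motif TGANTCA and the ETS core CCGGAAG were in 0 of 12 windows, against 6.57% and 8.52%. Both strands were searched for each, and these matches describe letters, not binding.

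KLF4, which drives epithelial differentiation and growth arrest, was higher with TGF-alpha than in each of the other 3 groups. Its levels were 6.23, 5.72 and 5.93 with heregulin, 6.56, 6.75 and 6.58 with TGF-alpha, 5.85, 5.93 and 5.87 with AP1510 and 5.98, 6.23 and 6.05 in untreated cells. The 3 TGF-alpha arrays lay above all 9 others, while heregulin arrays spread over the range of the AP1510 and untreated arrays. TGF-alpha exceeded untreated by 0.54 ± 0.116 (log2 difference and SE, n = 3 arrays each), or 1.46-fold, with an adjusted p of 0.00200 by limma. It exceeded AP1510 by 0.74, or 1.67-fold (limma adjusted p = 0.000172). With heregulin KLF4 was 1.59-fold lower than with TGF-alpha, a log2 difference of -0.67 (limma adjusted p = 0.000420). All 3 of these calls held without any single array. The AP1510 arrays all lay below the untreated ones, with a difference of -0.20 that was not called (limma adjusted p = 0.585). Heregulin differed from untreated by -0.13, with a 95% interval of -0.38 to 0.12, and from AP1510 by 0.07, so the lower 3 groups had no order beyond their spread.

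KLF5, which sustains proliferating basal epithelial cells, ran the other way with TGF-alpha. It read 9.87, 9.81 and 9.85 with heregulin, 9.33, 9.17 and 9.21 with TGF-alpha, 9.60, 9.65 and 9.76 with AP1510 and 9.62, 9.59 and 9.59 in untreated cells. The TGF-alpha arrays lay below all 9 others and the heregulin arrays above all 9 others. TGF-alpha was 1.29-fold below untreated, a difference of -0.36 ± 0.080 (SE, n = 3 arrays each; limma adjusted p = 0.00254), and 1.35-fold below AP1510, a difference of -0.43 (limma adjusted p = 0.000794). The lowest adjusted p of any member and pair was that of KLF5 for heregulin over TGF-alpha, at 0.61 ± 0.080 or 1.52-fold (limma adjusted p = 3.23e-05). These 3 calls also held without any single array. Against untreated, heregulin was higher by 0.24 with an interval of 0.07 to 0.41, and missed the threshold at an adjusted p of 0.0796 by limma. It was called when limma's variance was fitted with a trend and robustly (adjusted p = 0.0237) or when arrays were weighted (adjusted p = 0.0173). Heregulin replicates 1, 2 and 3 had weights of 0.584, 0.322 and 4.62, so weighted results with heregulin rest mostly on replicate 3. AP1510 differed from untreated by 0.07, with an interval of -0.10 to 0.24.

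**Figure D2:**
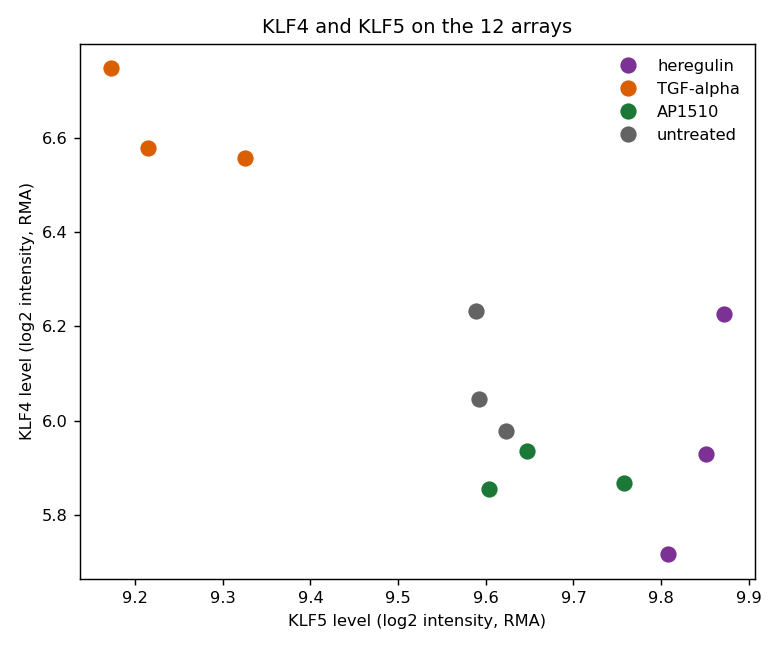
KLF5 level (horizontal axis) against KLF4 level (vertical axis), both log2 RMA intensity, with 1 point for each of the 12 arrays coloured by group. The 3 TGF-alpha arrays lie apart at the upper left, above 6.5 for KLF4 and below 9.4 for KLF5, and the 3 heregulin arrays lie at the right, at 9.81 to 9.87 for KLF5.

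KLF6, a widely expressed factor that is induced by injury and activates the cell cycle inhibitor gene CDKN1A, was highest in untreated cells. Its levels were 8.65, 8.79 and 9.20 with heregulin, 8.67, 8.54 and 8.65 with TGF-alpha, 8.28, 8.48 and 8.84 with AP1510 and 9.08, 9.13 and 9.04 in untreated cells. All TGF-alpha and AP1510 arrays lay below the untreated ones, and heregulin replicate 3 lay above them. TGF-alpha was 1.38-fold below untreated, a difference of -0.46 ± 0.140 (SE, n = 3 arrays each; limma adjusted p = 0.0210). That call was lost without TGF-alpha replicate 2 (adjusted p = 0.0792), without untreated replicate 1 (0.0531) or without untreated replicate 2 (0.0656), and when every probe set was tested (0.0584). The mean with AP1510 was lower still, at -0.55 from untreated with an interval of -0.85 to -0.25. The AP1510 arrays spread more, but the fit gives both differences the same SE. By limma the unadjusted p with AP1510 was 0.0012, below the 0.0046 with TGF-alpha. Its adjusted p was 0.0691, in a pair where 1.47% of all genes were called, against 26% with TGF-alpha. Without AP1510 replicate 3 the difference was -0.70 and was called (adjusted p = 0.0177), and without heregulin replicate 3, which left its size as it was, the adjusted p was 0.0327. Without AP1510 replicate 1 it was -0.43 (adjusted p = 0.305). Heregulin differed from untreated by -0.20 and was not called, and with weighted arrays, where heregulin replicate 3 had a weight of 4.62, this was 0.04.

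KLF7, a factor known for axon growth in neurons and present in many tissues, was not called in any pair. It stood at 7.09, 7.28 and 7.38 with heregulin, 7.28, 7.31 and 7.41 with TGF-alpha, 7.34, 7.58 and 7.84 with AP1510 and 7.57, 7.79 and 7.45 in untreated cells. Heregulin and TGF-alpha arrays all lay below the untreated arrays, and the AP1510 arrays overlapped every other group. Heregulin was below untreated by a difference of -0.35, with an interval of -0.62 to -0.09 and an adjusted p of 0.101 by limma. TGF-alpha differed from untreated by -0.27 (limma adjusted p = 0.138). Without AP1510 replicate 1, the lowest of its group, KLF7 was called lower with heregulin than with AP1510 (-0.46, adjusted p = 0.0345) and lower with TGF-alpha than with AP1510 (-0.37, adjusted p = 0.0422).

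KLF2, best known as a quiescence factor of endothelium and T cells, was called in no pair of groups. It read 7.10, 7.31 and 7.21 with heregulin, 7.23, 7.05 and 7.22 with TGF-alpha, 7.08, 7.40 and 7.03 with AP1510 and 7.11, 7.15 and 7.03 in untreated cells. Every pair of groups overlapped. The 6 differences between groups were at most 0.11 in size on the log2 scale, and their 95% intervals reached no lower than -0.22 and no higher than 0.33.

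KLF3, the repressor that works through CtBP, was lowest with TGF-alpha. Its levels were 8.65, 8.45 and 8.63 with heregulin, 8.20, 8.32 and 8.27 with TGF-alpha, 8.31, 8.43 and 8.53 with AP1510 and 8.49, 8.57 and 8.59 in untreated cells. TGF-alpha arrays lay below all heregulin and untreated arrays and overlapped the AP1510 ones. TGF-alpha was 1.22-fold below untreated, a difference of -0.29 ± 0.089 (SE, n = 3 arrays each; limma adjusted p = 0.0242). Heregulin was 1.24-fold above TGF-alpha, at 0.31 (limma adjusted p = 0.0194). The first call was lost without TGF-alpha replicate 1 or 3 or untreated replicate 2 or 3, with an adjusted p of up to 0.0885. The second was lost without heregulin replicate 1 or 3 or TGF-alpha replicate 1 or 3, with up to 0.0737. Heregulin and untreated differed by 0.02. AP1510 lay below both and above TGF-alpha in mean and was called against none of the 3.

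Among the members that recruit SIN3A, KLF13, which is known as an activator of the chemokine gene CCL5 in T cells and is the closest relative of KLF9, was higher with both natural ligands. It read 8.39, 8.31 and 8.39 with heregulin, 8.19, 8.30 and 8.41 with TGF-alpha, 7.98, 7.89 and 8.01 with AP1510 and 7.91, 8.02 and 7.85 in untreated cells. All heregulin and TGF-alpha arrays lay above all AP1510 and untreated arrays. Heregulin was 1.35-fold above untreated, a difference of 0.44 ± 0.087 (SE, n = 3 arrays each; limma adjusted p = 0.00402), and TGF-alpha was 1.29-fold above it, at 0.37 (limma adjusted p = 0.00389). Against AP1510, heregulin was higher by 0.41 (limma adjusted p = 0.00822) and TGF-alpha by 0.34 (limma adjusted p = 0.00865), the last of which missed the threshold without TGF-alpha replicate 3 (adjusted p = 0.0550). Heregulin and TGF-alpha differed by 0.07 and AP1510 and untreated by 0.03, neither beyond the spread.

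KLF13 was the one member with 2 probe sets, and they disagreed. The values above are from probe set 7982326, which lay above the median gene's level of 5.97 on every array. Probe set 7982333 lay below that level on every array. It read 4.88, 5.12 and 4.83 with heregulin, 5.01, 4.87 and 4.94 with TGF-alpha, 5.03, 4.81 and 4.76 with AP1510 and 4.92, 4.99 and 4.96 in untreated cells, so its groups overlapped. Its difference from untreated was -0.02 both with TGF-alpha (limma adjusted p = 0.947) and with heregulin (adjusted p = 0.962) in a fit of all probe sets. In that fit probe set 7982326 was called with TGF-alpha (adjusted p = 0.00772) and with heregulin (adjusted p = 0.0112). Taking the mean of both sets ended all 4 calls of KLF13, with differences from untreated of 0.18 for TGF-alpha (adjusted p = 0.133) and 0.21 for heregulin (adjusted p = 0.141). The calls of KLF13 therefore rest on 1 of its 2 probe sets, the brighter one. How well the dimmer one measures KLF13 was not tested.

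KLF10, a repressor induced by TGF-beta, was lower with AP1510 and heregulin than with TGF-alpha or no treatment. Its levels were 8.56, 8.60 and 8.53 with heregulin, 8.70, 8.82 and 8.78 with TGF-alpha, 8.60, 8.47 and 8.48 with AP1510 and 8.84, 8.80 and 8.78 in untreated cells. All heregulin and AP1510 arrays lay below all TGF-alpha and untreated arrays. Of these gaps only that of TGF-alpha over AP1510 was called, at 0.25 ± 0.079 or 1.19-fold (SE, n = 3 arrays each; limma adjusted p = 0.0319). It was lost without AP1510 replicate 2 or 3 or TGF-alpha replicate 2 or 3, with an adjusted p of up to 0.118, after renewed quantile normalization (0.0857) and with only those groups fitted (0.0539). Against untreated, AP1510 differed by -0.29 (limma adjusted p = 0.0898) and heregulin by -0.25 (limma adjusted p = 0.0688). The unadjusted p by limma for AP1510 against untreated, 0.00205, was below the 0.00625 of the called gap. Both differences from untreated were called with a trended and robust variance, at adjusted p values of 0.0352 and 0.0318, and with weighted arrays, at 0.0492 and 0.00750. TGF-alpha and untreated differed by -0.04.

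KLF11, the near relative of KLF10 that is also induced by TGF-beta and represses through SIN3A, was lowest with AP1510. It stood at 6.90, 6.95 and 6.78 with heregulin, 6.74, 6.89 and 6.78 with TGF-alpha, 6.45, 6.63 and 6.61 with AP1510 and 6.76, 6.82 and 6.70 in untreated cells. The AP1510 arrays lay below all 9 others, which overlapped each other. Heregulin was above AP1510 by 0.31 ± 0.087, or 1.24-fold (SE, n = 3 arrays each; limma adjusted p = 0.0408). That call was lost in 9 of 12 refits without 1 array, with an adjusted p of up to 0.141 without AP1510 replicate 1, and was kept without heregulin replicate 3, TGF-alpha replicate 2 or untreated replicate 2. It was also lost with weighted arrays (0.0599), with every probe set tested (0.0709) and with only those groups fitted (0.130). TGF-alpha exceeded AP1510 by 0.24 (limma adjusted p = 0.0630), which was called in 4 of 8 other settings, with weighted arrays (0.0491), arrays centred on the median gene (0.0460), dim genes left out (0.0468) or renewed quantile normalization (0.0452). AP1510 differed from untreated by -0.19 (limma adjusted p = 0.418).

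**Figure D3:**
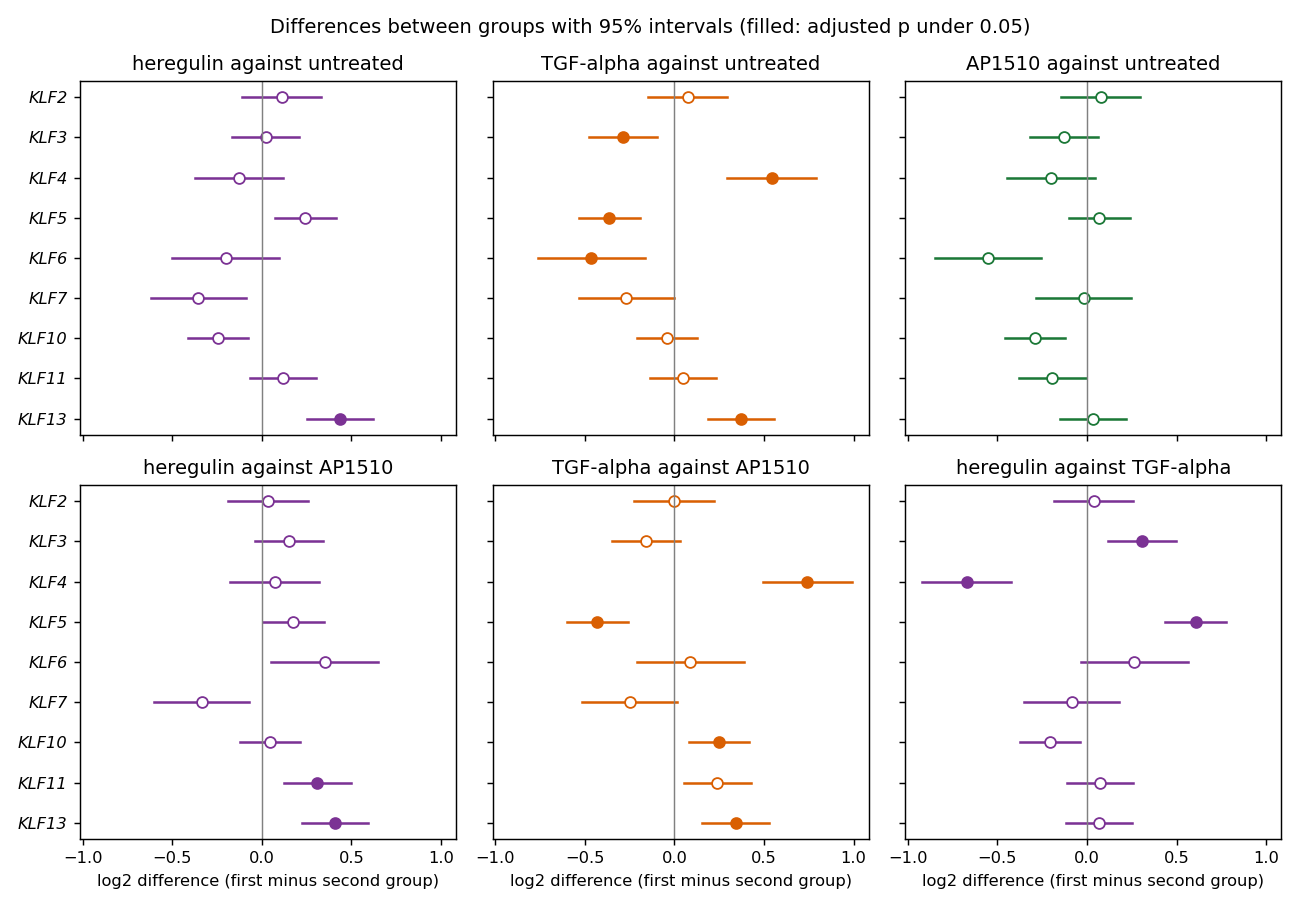
Difference between groups (horizontal axis, log2 intensity, first minus second group of each panel title) for the 9 members, with 95% intervals from limma; filled points were called. No point is filled for AP1510 against untreated, 5 are for TGF-alpha against untreated and 1 is for heregulin against untreated.

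The next comparisons ask how many members moved with each way of engaging the receptors, and set the count beside that of all genes. The 3 comparisons against untreated share the same 3 untreated arrays, so they are not independent of each other. With heregulin, 1 of 9 members was higher than in untreated cells, KLF13, and 0 were lower, against 3.45% and 5.06% of all genes and 8.5% in both directions. At an unadjusted p under 0.05 there were 4 members against 20.3% of genes, and 4 had groups that did not overlap against 23.8%. KLF5 and KLF13 lay above the untreated arrays and KLF7 and KLF10 below them. The median size of the 9 differences was 0.20, against 0.11 for all genes. The count of calls was 3 with a trended and robust variance or with weighted arrays, which added KLF5 and KLF10, and 0 with the mean of a gene's probe sets. The share of all genes called was 9.71% with that variance and 16.3% with weighted arrays.

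With TGF-alpha, 2 of 9 members were higher than in untreated cells, KLF4 and KLF13, and 3 were lower, KLF3, KLF5 and KLF6. Of all genes, 12.5% were called higher and 13.4% lower, 26% in both directions. At an unadjusted p under 0.05 there were 6 members against 34.4% of genes, and 6 members had groups that did not overlap against 40.2%. Besides the 5 called, KLF7 lay below the untreated arrays. The median size of the differences was 0.29, against 0.14 for all genes. Without 1 array the count was 3 to 5, with the lowest value without untreated replicate 2.

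With AP1510, 0 of 9 members were called against untreated by limma, where 1.47% of all genes were called, 0.771% higher and 0.7% lower. That share of all genes was 0.516% without AP1510 replicate 1, 0.635% to 0.809% without any 1 untreated array, and 0.258% of probe sets when every probe set was tested. At an unadjusted p under 0.05 there were 3 members, KLF6, KLF10 and KLF11, against 11.1% of genes. KLF4, KLF6, KLF10 and KLF11 had AP1510 arrays that all lay below the untreated ones, 4 members against 17.3% of genes without overlap in either direction. The median difference of the members was -0.13 and that of all genes was -0.01. With weighted arrays KLF10 was called, beside 1.94% of all genes, and with a trended and robust variance KLF6 (adjusted p = 0.0292) and KLF10 were, beside 2.19%. Without AP1510 replicate 3, or without heregulin replicate 3, KLF6 alone was called, beside 1.55% and 1.39% of all genes.

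Between the treatments, heregulin and TGF-alpha separated KLF3, KLF4 and KLF5. Relative to TGF-alpha, 2 of 9 members were higher with heregulin, KLF3 and KLF5, and 1 was lower, KLF4, against 9.88% and 11.8% of all genes and 21.6% in both directions. An unadjusted p under 0.05 was reached by 4 members against 31.1% of genes, and 4 did not overlap against 34.3%, KLF10 being the one added. With weighted arrays, where heregulin replicate 3 weighed most, the count of calls was 5, with KLF6 and KLF10 added. The share of all genes was then 31.9%. Heregulin against AP1510 called 2 members higher, KLF11 and KLF13, and 0 lower, against 3.27% and 3.95% of genes and 7.23% in both directions. There 5 members had an unadjusted p under 0.05 against 20.3% of genes, and 3 did not overlap, KLF5, KLF11 and KLF13, against 22.7%. The count was 1 in 7 of 12 refits without 1 array, where KLF11 was lost without KLF6 or KLF7 taking its place. With weighted arrays the count stayed at 2, but KLF6 (0.56, adjusted p = 0.00772) was called in place of KLF11, and the share of all genes was 13.3%.

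TGF-alpha against AP1510 called 3 members higher, KLF4, KLF10 and KLF13, and 1 lower, KLF5, against 11.2% and 10.4% of genes and 21.6% in both directions. An unadjusted p under 0.05 was reached by 5 members against 30.2% of genes, and 5 did not overlap against 36.4%, KLF11 being the one added. Without 1 array the count was 2 to 5, the lowest without TGF-alpha replicate 3.

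Of the other 17 Kruppel-like and SP factors, which bind the same GC-rich sites, 16 were measured. KLF9, a hormone-responsive repressor and the closest relative of KLF13, rose most. It read 7.40, 7.66 and 7.36 with heregulin, 7.09, 7.11 and 7.30 with TGF-alpha, 6.88, 6.94 and 6.61 with AP1510 and 6.85, 6.85 and 6.86 in untreated cells. All heregulin arrays lay above all TGF-alpha arrays, which lay above all others. KLF9 was 1.53-fold above untreated with heregulin, at 0.62 ± 0.107 (SE, n = 3 arrays each; limma adjusted p = 0.00131), and 1.24-fold above it with TGF-alpha, at 0.31 (limma adjusted p = 0.0398). The gap of 0.30 between heregulin and TGF-alpha was not called (limma adjusted p = 0.0537). SP6, a factor of tooth and skin development, lay below the median gene's level of 5.97 on all 12 arrays. With TGF-alpha it fell to 5.07, 5.02 and 5.18, against 5.30, 5.60 and 5.38 in untreated cells, a difference of -0.34 (limma adjusted p = 0.0177). These were the only calls of the list against untreated, 1 higher and 1 lower with TGF-alpha, 1 higher with heregulin and 0 with AP1510, where limma also gave 0 of the 16 an unadjusted p under 0.05. Of all genes, 8.5% were called with heregulin, 26% with TGF-alpha and 1.47% with AP1510, where 11.1% had an unadjusted p under 0.05. Its median difference from untreated was 0.03 with heregulin, 0.05 with TGF-alpha and -0.03 with AP1510, beside 0.01, -0.01 and -0.01 for all genes.

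**Figure D4:**
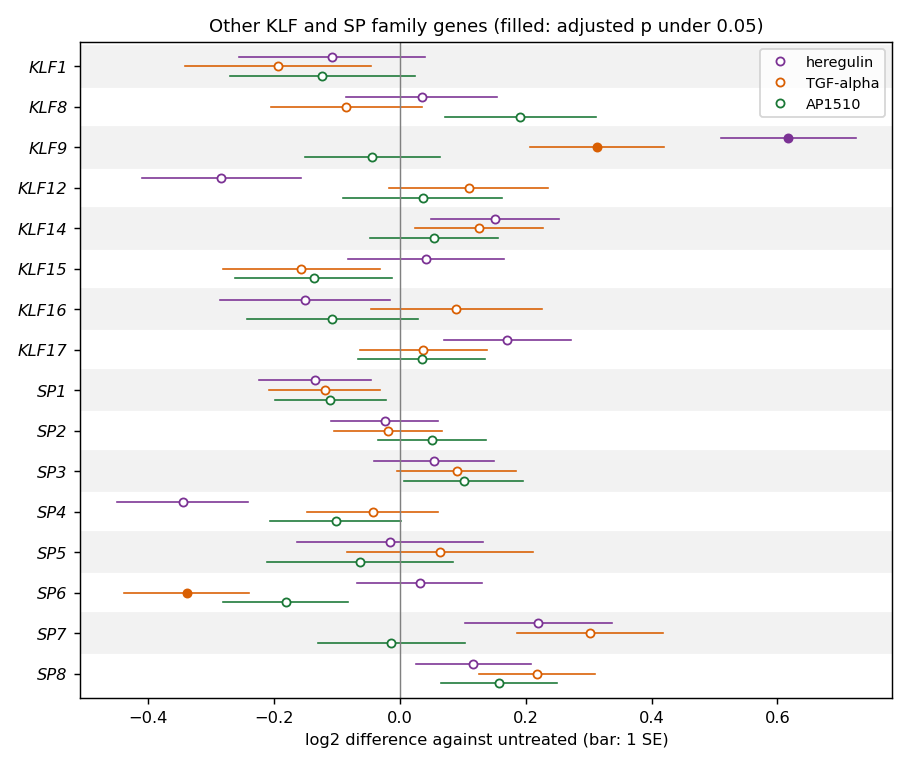
Log2 difference from untreated (horizontal axis, bars 1 SE from limma) of the 16 other measured Kruppel-like and SP genes with heregulin, TGF-alpha and AP1510; filled points were called. KLF9 is filled for heregulin at 0.62 and for TGF-alpha at 0.31, and SP6 for TGF-alpha at -0.34.

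The kinases and MEF2 factors that drive KLF2 and KLF4 through ERK5 numbered 7, all measured. With heregulin MAP3K3, a kinase at the head of that cascade, was lower by a difference of -0.29 (limma adjusted p = 0.0473), and 0 of the 7 were called with TGF-alpha or AP1510, where limma's unadjusted p was under 0.05 for 1 and 0 of them. The shares of all genes called were 8.5% with heregulin, 26% with TGF-alpha and 1.47% with AP1510. An unadjusted p under 0.05 was reached by 34.4% of all genes with TGF-alpha and 11.1% with AP1510. Of 10 cofactors and ubiquitin ligases of the family, 4 fell with TGF-alpha and 0 rose, where 13.4% of all genes fell and 12.5% rose. They were CREBBP and KAT2B, acetyltransferases, at -0.45 and -0.33, HDAC1, a deacetylase, at -0.43, and WWP1, a ligase that marks KLF5 for degradation, at -0.38. HDAC1 alone fell with heregulin, to 9.47, 9.33 and 9.45, against 9.82, 9.67 and 9.74 in untreated cells, a difference of -0.33 (limma adjusted p = 0.0217). Of all genes, 5.06% fell with heregulin. With AP1510 limma called 0 of the 10 and gave 0 an unadjusted p under 0.05, against 1.47% and 11.1% of all genes. The list's median difference was -0.07 with heregulin, -0.20 with TGF-alpha and 0.00 with AP1510.

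Because KLF10 and KLF11 respond to TGF-beta, 12 genes of that pathway were also read, of which 11 were measured. With heregulin 4 fell and 0 rose, with TGF-alpha 5 fell and 0 rose, and with AP1510 limma called 0, with 1 at an unadjusted p under 0.05. Of all genes, 5.06% fell with heregulin, 13.4% with TGF-alpha and 0.7% with AP1510, where 11.1% had an unadjusted p under 0.05. The ligand gene TGFB2 read 7.15, 6.90 and 7.54 with heregulin, 7.65, 7.63 and 7.64 with TGF-alpha, 8.16, 8.41 and 8.69 with AP1510 and 8.61, 8.48 and 8.78 in untreated cells. It was 2.69-fold below untreated with heregulin (limma adjusted p = 1.06e-05) and 1.98-fold below it with TGF-alpha (adjusted p = 9.10e-05). TGFB3 fell 2.20-fold with TGF-alpha (limma adjusted p = 2.47e-06), to 4.69, 5.19 and 5.10, against 6.15, 6.05 and 6.21 in untreated cells. TGFB1 fell with heregulin to 6.92, 6.46 and 6.72, against 7.37, 7.27 and 7.38 in untreated cells (limma adjusted p = 0.00141). The receptor gene TGFBR2 fell with heregulin by 0.41 and with TGF-alpha by 0.49 on the log2 scale. The others that fell were SMAD2 with heregulin, at -0.46, and SKIL and SMAD7, which restrain the pathway, with TGF-alpha, at -0.65 and -0.34. The median difference of the 11 was -0.28 with heregulin and -0.30 with TGF-alpha, and 0.05 with AP1510.

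A list of 20 genes reported as targets of Kruppel-like factors in various tissues held 19 that were measured. With heregulin 2 rose and 5 fell, with TGF-alpha 7 rose and 6 fell, and with AP1510 2 rose and 0 fell. Of all genes, 3.45% rose and 5.06% fell with heregulin, 12.5% and 13.4% with TGF-alpha and 0.771% and 0.7% with AP1510. MAOA, a monoamine oxidase gene that KLF11 activates in neural cells, moved most. It read 9.03, 9.05 and 9.08 with heregulin, 7.73, 7.79 and 7.61 with TGF-alpha, 8.10, 6.86 and 6.55 with AP1510 and 6.53, 6.42 and 5.93 in untreated cells. Heregulin was 6.78-fold above untreated (limma adjusted p = 5.33e-06) and TGF-alpha 2.67-fold (limma adjusted p = 0.000739), while AP1510 replicate 1 lay above the other 2 AP1510 arrays and above the TGF-alpha arrays. FGFBP1, a growth factor binding protein that KLF5 activates, was higher with all 3 treatments. Its levels were 10.90, 10.96 and 11.07 with heregulin, 11.16, 11.29 and 11.08 with TGF-alpha, 10.83, 10.78 and 10.72 with AP1510 and 10.13, 10.32 and 10.21 in untreated cells. It exceeded untreated by 0.76, 0.96 and 0.56 in that order of treatments, the last with an adjusted p of 0.00493 by limma. CCNB1, a mitotic cyclin that KLF4 represses, was higher with TGF-alpha by 1.24 and with AP1510 by 0.43, where its adjusted p was 0.0478 by limma. The survivin gene BIRC5, a target of KLF5, rose with TGF-alpha by 1.18.

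ATF3, a stress-induced factor, fell most with TGF-alpha. It read 6.14, 6.05 and 6.59 with heregulin, 5.49, 5.64 and 5.19 with TGF-alpha, 5.67, 6.45 and 6.92 with AP1510 and 6.84, 6.91 and 6.96 in untreated cells. TGF-alpha and heregulin arrays all lay below the untreated ones, and AP1510 replicate 1 lay far below replicate 3. The difference of TGF-alpha from untreated was -1.47 (limma adjusted p = 0.000116).

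CCND1, cyclin D1, went in opposite directions. It read 6.99, 7.27 and 7.20 with heregulin, 8.44, 8.21 and 8.40 with TGF-alpha, 7.39, 7.61 and 7.81 with AP1510 and 7.59, 7.87 and 7.62 in untreated cells. Heregulin arrays lay below and TGF-alpha arrays above every AP1510 and untreated array. The difference from untreated was -0.54 with heregulin (limma adjusted p = 0.00859) and 0.66 with TGF-alpha (limma adjusted p = 0.000509). IVL, the involucrin gene of differentiating keratinocytes, which KLF4 can activate, was lower in the 2 groups given natural ligands. It read 5.82, 6.16 and 6.65 with heregulin, 6.07, 6.34 and 6.03 with TGF-alpha, 6.07, 7.07 and 7.34 with AP1510 and 7.03, 7.44 and 7.28 in untreated cells. AP1510 replicate 1 lay with the ligand-treated arrays. The difference from untreated was -1.04 with heregulin (limma adjusted p = 0.0164) and -1.10 with TGF-alpha (limma adjusted p = 0.00356).

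**Figure D5:**
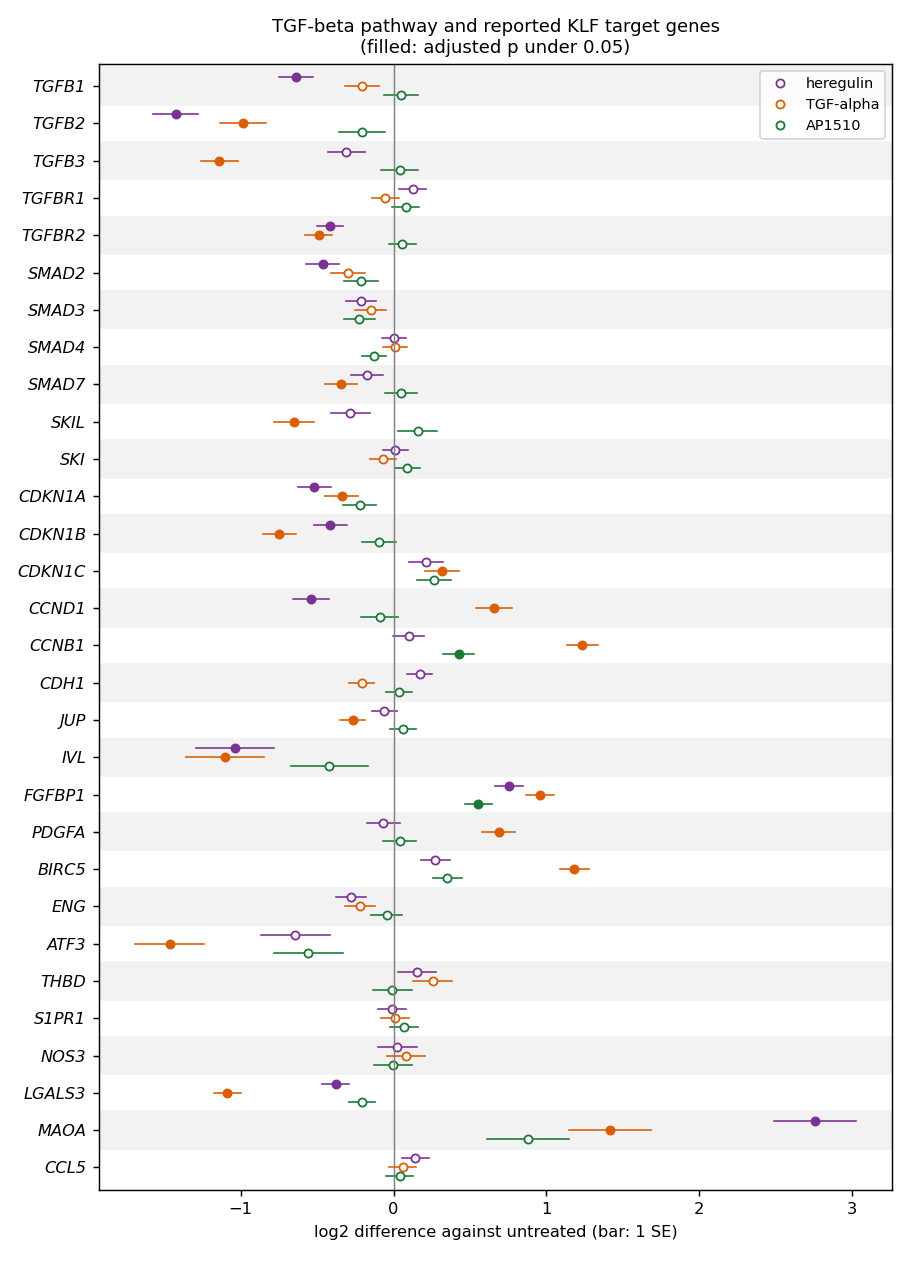
Log2 difference from untreated (horizontal axis, bars 1 SE from limma) of 11 TGF-beta pathway genes and 19 reported Kruppel-like factor target genes with heregulin, TGF-alpha and AP1510; filled points were called. TGFB2 is filled for heregulin and TGF-alpha on the left, and MAOA reaches 2.76 with heregulin on the right.

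Genes with the most similar course over the 12 arrays were found by the root mean square difference between centred levels, a description of these arrays in which the arrays are shared by every pair. For KLF4, whose own root mean square deviation was 0.318, the nearest were ARL2BP at 0.109, HAUS2 at 0.114 and ACBD6 at 0.119. KLF5, at 0.226 itself, was followed most closely by LRRC8D at 0.0700, NOTCH2 at 0.0784 and RC3H1 at 0.0798. KLF6, at 0.275, had DUSP1 at 0.127, GADD45A at 0.128 and SASH1 at 0.143 nearest. Nearest to KLF3 was SAR1A at 0.0534, to KLF10 PRPF8 at 0.0445 and to KLF13 RABGGTA at 0.0750.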

How the data were processed

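The deposited table holds log2 intensities; per the submitters' processing notes the authors used RMA, in which background correction and quantile normalization precede the summary of probes. The RMA version was not given in the sources used here. Of 33297 probe sets, 19460 named exactly 1 gene and entered the test through the brightest set of each gene, which gave 18417 genes. Symbols were updated through Entrez IDs to RefSeq names. limma 3.58.1 in R 4.3.3 fitted 1 model with a mean per group over all 12 arrays, with 8 residual degrees of freedom, and tested 6 two-sided contrasts and a moderated F test with Benjamini-Hochberg adjustment over all genes. The procedure was tested on simulated data. The members and lists were chosen with earlier results of these data known. Of genes called against untreated, up to 4 per list and contrast are named, those with the largest differences, and a gene named for one contrast is also given in others. SMAD7, the markers, and KLF12, SP4, MAP3K2 and HDAC2 fall outside this rule and were chosen after their values were seen. Similar genes were the 3 with the smallest root mean square difference to a member that passed the F test, of which the nearest are printed. The number of arrays limits the precision. Alternatives changed the probe sets, scaling, filter, variance, array weights and groups fitted, and left out each array.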

Additional observations from a re-analysis of the deposited data

How the results depend on the processing

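No paired analysis was possible because the labels carry no replicate numbers shared across groups. Each of the 54 differences of single members was computed again under 8 other settings and without each of the 12 arrays. Of the 15 calls, 9 held without any single array and 8 under all other settings. The number of members called went to 1 with array weights and 2 with a trended and robust variance for AP1510 against untreated, where it had been 0, and to 3, 3 and 0 with array weights, that variance and the mean of probe sets for heregulin against untreated, where it had been 1. For heregulin against AP1510 it was 1, not 2, with all probe sets tested, the mean of probe sets or only those groups fitted, and for heregulin against TGF-alpha it was 5, not 3, with array weights. Without 1 array the counts were 0 to 1 for AP1510, 3 to 5 for TGF-alpha and 1 to 1 for heregulin against untreated, 2 to 5 for TGF-alpha against AP1510, 1 to 2 for heregulin against AP1510, 2 to 3 for heregulin against TGF-alpha and 4 to 7 for the F test. The shares of all genes called were then 0.516% to 1.78%, 21.6% to 28.1% and 5.64% to 8.7% against untreated in that order. They were 17.2% to 23.6% for TGF-alpha against AP1510, 4.44% to 7.18% for heregulin against AP1510 and 17.1% to 21.7% for heregulin against TGF-alpha. For the F test without 1 array the share was not computed.

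No called difference changed sign. Among uncalled ones, array weights turned KLF11 for heregulin against TGF-alpha to -0.00966, KLF7 there to 0.0102, KLF7 for AP1510 against untreated to 0.0319 and KLF6 for heregulin against untreated to 0.0402. The mean of probe sets turned KLF13 for AP1510 against untreated to -0.0312, and centring on the median gene turned KLF2 for TGF-alpha against AP1510 to 0.0138. Without 1 array, values crossed 0 for KLF2, which ran from -0.0377 to 0.146 for AP1510 against untreated, from -0.0717 to 0.112 for TGF-alpha against AP1510, from -0.0352 to 0.148 for heregulin against AP1510 and from -0.0223 to 0.0890 for heregulin against TGF-alpha. The same held for AP1510 against untreated in KLF7, from -0.145 to 0.106, and KLF13, from -0.00637 to 0.0786. It held too for KLF3 in heregulin against untreated, from -0.0158 to 0.0850, KLF4 in heregulin against AP1510, from -0.0638 to 0.191, and KLF6 in TGF-alpha against AP1510, from -0.0391 to 0.24. The cause was not tested.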

Other observations

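Within their groups, AP1510 replicate 1 was the lowest of 3 arrays for 6 of the 9 Kruppel-like factors, against 33.6% of all genes, and TGF-alpha replicate 1 was the lowest for 6, against 40.2%. In untreated cells replicate 3 was the lowest for 6 members, against 36.1% of genes, and replicate 2 the highest for 6, against 39.1%. KLF12, a repressor that uses CtBP, was lower with heregulin than with TGF-alpha by a log2 difference of -0.39 (limma adjusted p = 0.0353), and SP4 was lower by -0.30 (limma adjusted p = 0.0497). SP6 was higher there by 0.37 (limma adjusted p = 0.0125). Of the 16 other family genes, 1 was thus higher and 2 were lower, against 9.88% and 11.8% of all genes. MAP3K2, a kinase upstream of ERK5, was higher with heregulin than with TGF-alpha by 0.37 (limma adjusted p = 0.0221), and lower with TGF-alpha than with AP1510, at -0.39 (limma adjusted p = 0.0176). It was the only call of its list of 7 in each of these pairs, where 21.6% of all genes were called. HDAC2, a deacetylase of the SIN3A complex, was lower with heregulin than with TGF-alpha by -0.51 (limma adjusted p = 0.00116), whereas CREBBP, at 0.41, and KAT2B, at 0.47, were higher (limma adjusted p = 0.00278 and 0.00509). WWP1 was higher as well, at 0.31 (limma adjusted p = 0.0383). Of the 10 cofactors and ligases, 3 were thus higher and 1 was lower in that pair, against 9.88% and 11.8% of all genes.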
